A study of Mus musculus with 9 samples.

Results

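The BAF complex (the mammalian SWI/SNF remodeler) uses the energy of ATP to slide or evict nucleosomes, and so opens or closes stretches of chromatin to transcription factors. Its motor is either Brg1, encoded by Smarca4, or Brm, encoded by Smarca2. Core subunits, not all of them in every form, assemble into canonical BAF, polybromo-associated BAF (PBAF) and non-canonical BAF, each with its own accessory subunits. Bromodomains, present in both motors and in several of the other proteins described here, bind acetylated lysines on histones. Acetyltransferases place these acetyl groups and deacetylases remove them. The set described here held 44 genes of the 55416 Ensembl genes in the count table. They were chosen by name, as the subunits of the complex that the compound PFI-3 binds, other ATP-dependent remodelers, proteins of the BET family (readers of acetylated histones), acetyltransferases and deacetylases. By role they comprised 2 BAF ATPases, 11 core subunits, 6 canonical BAF subunits, 4 PBAF subunits, 3 non-canonical BAF subunits, 5 other remodelers, 2 BET proteins, 4 acetyltransferases, 3 class I deacetylases and 4 class IIa deacetylases, and 11 of the 44 encode a protein with a bromodomain. All 44 matched a single Ensembl identifier. Of these, 43 passed the filter on low counts, and the remaining gene, Dpf3, had between 0 and 2 counts in a library and was not tested.

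RNA-Seq was performed in AdvSca1-SM cells, which are Sca1-expressing progenitor cells of the arterial adventitia that descend from smooth muscle. The cells had been sorted as YFP+ and Sca1+ from the aortas and carotid arteries of pooled 8-week-old SM22α-Cre-YFP mice, in which Cre under a smooth muscle promoter marks the lineage, and were cultured. There were 3 libraries in each of 3 groups, and all cells received 0.1% DMSO for 72 h. The Stem group received DMSO alone, the TGF-β group 5 ng/mL TGF-β1, and the Both group 5 ng/mL TGF-β1 together with 50 μM PFI-3, a small molecule that binds the bromodomains of Brg1, Brm and polybromo (Pbrm1). The cells were maintained in stem cell medium with growth factors and 10% FBS, and the treated cells were kept in DMEM with 0.1% FBS. The sources are not clear on the medium of the Stem group during treatment. The study gives stem cell medium, whereas the labels describe growth arrest of the cells and the switch to DMEM without saying whether the Stem group was included. With stem cell medium in Stem, the effects of medium and of TGF-β1 cannot be told apart between Stem and the treated groups. TGF-β and Both differed by the labels in PFI-3. No group received PFI-3 without TGF-β1. The study calls the replicates independent without saying what was repeated, and the labels tie no library to a culture or animal, so p-values measure the spread between these libraries, which may be technical.

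The libraries held between 35686291 and 47741128 counts, of which the 44 genes took between 0.269% and 0.374%. Values are normalized counts, that is counts scaled to a common library by the TMM method, and each fold change comes with its 95% interval and a p from the quasi-likelihood test of edgeR, adjusted by the Benjamini-Hochberg method over the 14879 genes tested. A gene was called at an adjusted p below 0.05, and calls that were also past 2-fold are given separately. An exact permutation test of 3 libraries against 3 cannot give a p below 0.1, so it is not quoted for single genes. Stem replicate 2 stood apart from the other Stem libraries. The chi-square per degree of freedom over all genes was 121 against Stem replicate 1 and 99.2 against Stem replicate 3, compared with 7.13 between those other libraries and 5.58 to 15.4 within TGF-β and within Both. Leading counts are therefore given with and without this library.

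The sorted cells were checked against their markers. The 6 genes taken as markers of adventitial progenitors (Ly6a, Cd34, Pdgfra, Scara5, Pi16 and Dpp4) summed to between 50989 and 59312 normalized counts in the Stem libraries, to between 12195 and 12314 in TGF-β and to between 10605 and 11137 in Both. Most of the sum in Stem was Pdgfra, and Pi16 went the other way, with a mean of 508 in Stem, 5771 with TGF-β1 and 3828 in Both. Macrophage and leukocyte markers summed to 140 to 152 in Stem, 178 to 219 with TGF-β1 and 291 to 307 in Both, groups that did not overlap. Adgre1 and Itgam were at 0 in every library, and Csf1r had means of 28.5, 76.1 and 138. Endothelial markers summed to 115 to 249 in Stem, 59.4 to 93.7 in TGF-β and 52.7 to 70.1 in Both. Among them Emcn had means of 104, 8.27 and 2.12, and Kdr went the other way, with 0.72, 26.1 and 27.8. The RNA protocol of the labels speaks of hepatic tissue. The 6 hepatocyte markers summed to 32.6 to 48.2 in Stem, 29.1 to 31.4 in TGF-β and 13.2 to 18.8 in Both, with Serpina1a and Cyp3a11 at 0. Of 14 cell cycle genes, 9 were called higher and 2 lower in TGF-β than in Stem. These were 64.3% and 14.3%, against 37.3% and 37.7% of all genes tested. The sum of the 14 genes was 5809 to 6360 in Stem, 6880 to 7206 in TGF-β and 6989 to 7201 in Both. The part of any of these shifts in the results for chromatin genes was not tested. In bulk RNA, fewer cells of a type and less RNA per cell cannot be told apart.

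Promoter sequences of this set were mostly rich in CG dinucleotides, although the number ranged from 0 to 51. RefSeq promoters (GRCm38.p6) were at hand for 35 of the 44 genes, 45 promoters in all, and the 250 bases before each start were read. The median number of CG dinucleotides was 23 in these promoters and 6 in all 32851 promoters of the table, and the median ratio of observed to expected CG was 0.876 against 0.374. The 32851 promoters were not restricted to genes expressed in these cells. Whether the contrast is particular to this set was not tested. CAGAC, a short element to which Smad proteins are known to bind, was present on either strand in 14 of the 45 promoters (31.1%) and in 42.2% of all promoters. TGACTCA or TGAGTCA, the AP-1 element, was present in 2 (4.44%, against 4.46% of all), and GTCTAGAC, a palindromic Smad element that does not contain CAGAC, in 0 (0.167% of all). A match is a description of letters in this window only. The promoters of 4 genes are shown because these genes carry the main differences below. Smarca4 (chr9:21615919-21616168, plus strand) and Smarca2 (chr19:26604910-26605159, plus strand) encode the alternative motors, Smarcd3 (chr5:24602003-24602252, minus strand) had the largest rise of the set with TGF-β1 and Smarca1 (chrX:47892614-47892863, minus strand) the largest fall. Each is written 5′ to 3′ and capitals mark CG dinucleotides.
Smarca4: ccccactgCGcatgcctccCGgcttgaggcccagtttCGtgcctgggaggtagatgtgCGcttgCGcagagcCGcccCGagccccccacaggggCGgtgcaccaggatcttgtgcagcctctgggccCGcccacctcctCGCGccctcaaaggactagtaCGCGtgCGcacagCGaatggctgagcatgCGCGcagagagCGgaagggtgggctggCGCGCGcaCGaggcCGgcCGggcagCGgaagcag
Smarca2: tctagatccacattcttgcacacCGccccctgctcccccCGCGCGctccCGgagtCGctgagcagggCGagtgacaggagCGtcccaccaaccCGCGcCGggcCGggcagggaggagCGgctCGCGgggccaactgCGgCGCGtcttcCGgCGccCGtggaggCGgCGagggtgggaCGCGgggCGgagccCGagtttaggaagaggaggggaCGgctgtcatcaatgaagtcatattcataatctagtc
Smarcd3: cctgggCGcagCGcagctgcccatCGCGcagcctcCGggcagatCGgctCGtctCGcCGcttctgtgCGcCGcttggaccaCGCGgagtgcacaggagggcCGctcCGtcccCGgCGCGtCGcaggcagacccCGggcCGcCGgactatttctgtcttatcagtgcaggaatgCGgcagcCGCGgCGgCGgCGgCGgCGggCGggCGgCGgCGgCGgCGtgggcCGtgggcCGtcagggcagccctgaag
Smarca1: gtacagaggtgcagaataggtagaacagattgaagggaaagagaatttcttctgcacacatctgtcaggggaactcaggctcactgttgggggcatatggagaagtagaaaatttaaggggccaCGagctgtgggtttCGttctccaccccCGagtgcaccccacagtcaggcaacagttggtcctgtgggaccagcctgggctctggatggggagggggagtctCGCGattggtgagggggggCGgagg
The window held 25 CG dinucleotides in Smarca4, 28 in Smarca2, 38 in Smarcd3 and 6 in Smarca1. Of the 4, only Smarcd3 held CAGAC.

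Between Stem and TGF-β most of these genes changed, and mostly by less than 2-fold. Of the 43 tested, 8 rose, 28 fell and 7 did not pass the test. Over all genes tested, 37.3% were higher and 37.7% lower in this comparison, whereas 18.6% of the members were higher and 65.1% lower. The median log2 fold change was -0.20 over the members and -0.0027 over all genes, and the median absolute change was smaller in the members (0.29) than over all genes (0.49). Only 3 members were past 2-fold, Smarcd3 upward and Smarca1 and Hdac9 downward, against 25.1% of all genes. Smarcd3 was under 2-fold with total counts (0.91), with a correction for GC content and length (0.92) and without Stem replicate 2 (0.999), and Bicra was past 2-fold in each of these fits (-1.09, -1.04 and -1.07). Without Stem replicate 2, 6 rose and 28 fell. When libraries were scaled by their total counts, the median of all genes was -0.12, and 4 members rose and 32 fell. The members are longer than the genes tested (median exon length 6949 against 4187 bases), and with a correction for GC content and length 8 rose and 25 fell.

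**Figure D1:**
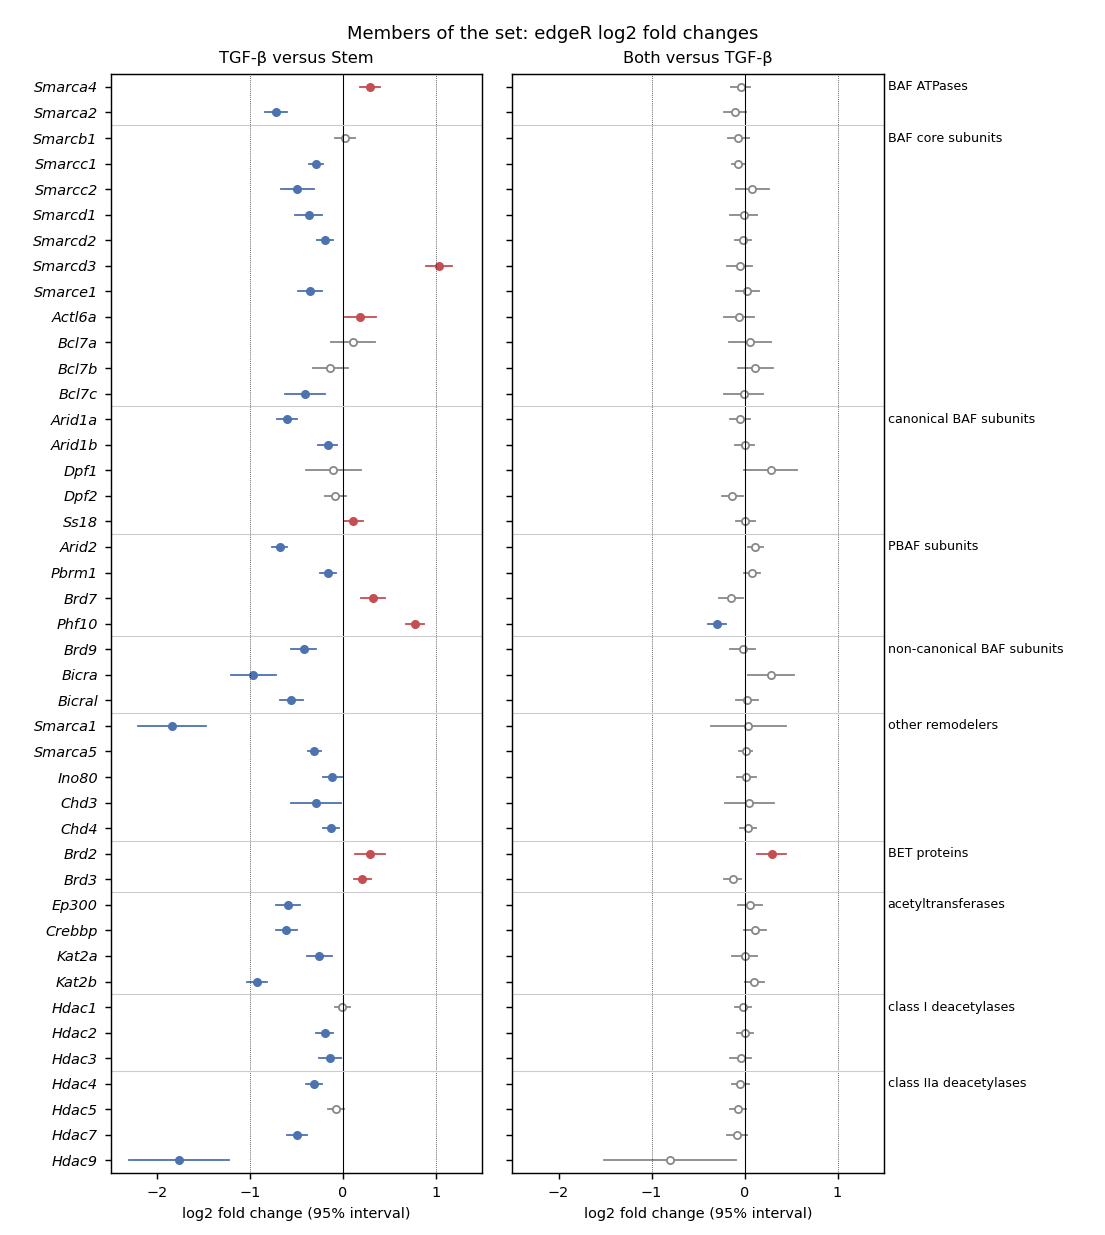
Log2 fold change of each of the 43 tested members with its 95% interval, for TGF-β against Stem (left) and Both against TGF-β (right), grouped by role. Filled points passed an adjusted p of 0.05 (red higher, blue lower), open grey points did not, and dotted lines mark 2-fold. On the left 36 points are filled, on the right 2, Brd2 and Phf10.

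The 2 BAF motors moved in opposite directions with TGF-β1. Smarca4 (ENSMUSG00000032187), which encodes Brg1, had 4460, 3854 and 4211 normalized counts in the Stem libraries, 5162, 5101 and 5059 in TGF-β and 5029, 4907 and 4948 in Both. All TGF-β and Both libraries were above all Stem libraries. The log2 fold change was 0.29 (95% interval 0.19 to 0.40, adjusted p = 0.000141 from edgeR) between Stem and TGF-β. Smarca2 (ENSMUSG00000024921), which encodes Brm, had 7801, 6806 and 7665 in Stem, 4562, 4563 and 4415 in TGF-β and 4386, 3992 and 4191 in Both. Every TGF-β library was below every Stem library, and Smarca2 fell by 0.72 on the log2 scale (interval -0.84 to -0.60, adjusted p = 1.2e-07). Levels of different genes are compared here as RPKM, normalized counts scaled per kilobase of exon and to a common depth. On this scale the ratio of Smarca2 to Smarca4 was 0.794 to 0.826 in Stem, 0.396 to 0.406 in TGF-β and 0.369 to 0.396 in Both. The summed RPKM of both motors had a median of 28.8 in Stem (26.0 to 30.0), 26.9 in TGF-β (26.5 to 27.1) and 25.7 in Both (25.2 to 26.3). The sums of Stem and TGF-β overlapped only through Stem replicate 2, which had the Stem sum of 26.0. The other Stem sums were above all TGF-β sums. The ratio of Smarca2 to Smarca4 did not overlap between Stem and TGF-β. Its level and the RPKM sums depend on the lengths used, all annotated exons joined (14269 bases for Smarca2, 6475 for Smarca4). The change of the ratio does not. In normalized counts Smarca2 was above Smarca4 in every Stem library (mean log2 ratio 0.83) and below it in every TGF-β library (-0.18). Summed normalized counts of the motors were higher in every Stem library than in every TGF-β library.

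**Figure D2:**
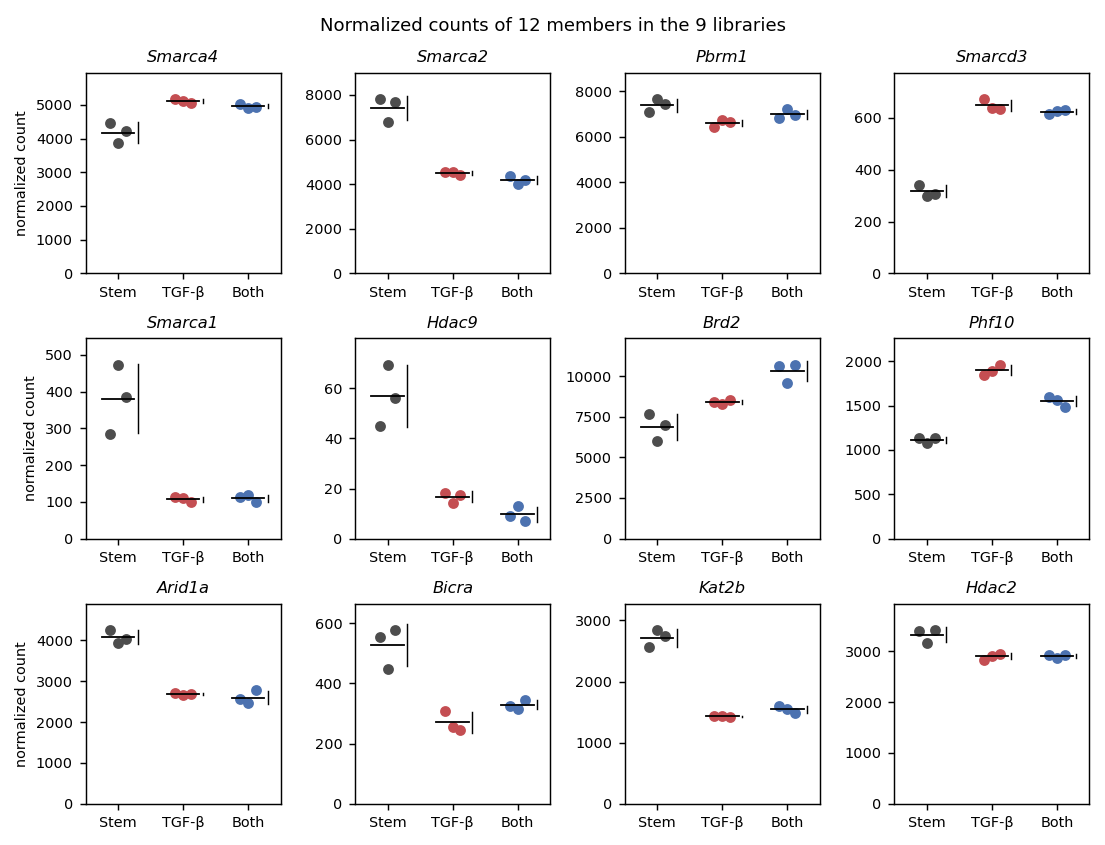
Normalized counts (vertical axis, from 0) of 12 members in the 3 Stem (grey), 3 TGF-β (red) and 3 Both (blue) libraries. Each point is a library, horizontal lines are group means and vertical lines span 1 SD on either side. Smarca4 and Smarca2 move in opposite directions between Stem and TGF-β, and Brd2 and Phf10 differ between TGF-β and Both.

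Among the 11 core subunits, which are shared by several forms of the complex, 2 rose, 6 fell and 3 did not pass. The shares higher and lower were 18.2% and 54.5%, against 37.3% and 37.7% of all genes. Smarcd3 (ENSMUSG00000028949), the BAF60c subunit known from heart and muscle, had 342, 299 and 307 normalized counts in the Stem libraries, 671, 638 and 634 in TGF-β and 616, 625 and 632 in Both. The TGF-β values were all above the Stem values, and the log2 fold change was 1.03 (interval 0.89 to 1.17, adjusted p = 2.37e-08). Opposite-strand Chpf2 covers 48.2% of the annotated exon length of Smarcd3, the strand setting of the counting is not given in the sources used here, and Chpf2 rose as well (log2 fold change 0.69, adjusted p = 2.77e-08), so the value of Smarcd3 is uncertain. Its paralogs Smarcd1 (BAF60a) and Smarcd2 (BAF60b) fell, by 0.37 and 0.19 on the log2 scale. The scaffold subunits Smarcc1 (BAF155) and Smarcc2 (BAF170) fell by 0.29 and 0.49, and Smarce1 (BAF57) and Bcl7c fell by 0.35 and 0.41. Actl6a (BAF53a, an actin-related subunit) had an adjusted p of 0.0374 at a log2 fold change of 0.19, and its Stem and TGF-β values overlapped. This call was lost without Stem replicate 2, Stem replicate 3, TGF-β replicate 2 or TGF-β replicate 3, and under total-count scaling. Smarcb1 (BAF47) had a log2 fold change of 0.02 (interval -0.09 to 0.13), Bcl7a of 0.11 and Bcl7b of -0.13, and none of these passed.

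The canonical BAF subunits Arid1a and Arid1b are large, mutually exclusive DNA-binding subunits, and both fell. Arid1a (ENSMUSG00000007880) had 4258, 3927 and 4035 normalized counts in the Stem libraries, 2712, 2657 and 2681 in TGF-β and 2553, 2459 and 2772 in Both. The TGF-β values lay below all Stem values, a fall of 0.60 on the log2 scale (interval -0.71 to -0.50, adjusted p = 2.24e-07). Arid1b fell by 0.16. Ss18 had an adjusted p of 0.0483 at a log2 fold change of 0.11, with overlapping groups, a call that was lost without any of 6 libraries (Stem 2 and 3, TGF-β 1 and 3, Both 1 and 3) and turned to -0.01 under total-count scaling. The PHD finger subunits Dpf1 (-0.10) and Dpf2 (-0.08) did not pass.

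In PBAF, Phf10 and Brd7 rose and Arid2 and Pbrm1 fell. Phf10 (ENSMUSG00000023883), the BAF45a subunit of PBAF, had 1131, 1074 and 1135 normalized counts in the Stem libraries and 1851, 1895 and 1964 with TGF-β1. All TGF-β values were higher, with a log2 fold change of 0.77 (interval 0.67 to 0.88, adjusted p = 1.48e-08). The bromodomain protein Brd7 rose by a log2 fold change of 0.32, and Arid2, the DNA-binding subunit of PBAF, fell by 0.68 (adjusted p = 6.42e-09). Pbrm1 (ENSMUSG00000042323), whose product polybromo carries several bromodomains, had 7084, 7653 and 7450 in Stem, 6455, 6745 and 6646 in TGF-β and 6835, 7220 and 6948 in Both. The Stem and TGF-β groups did not overlap, and Pbrm1 fell by 0.16 (interval -0.25 to -0.07, adjusted p = 0.00329), although with a correction for GC content and length its log2 fold change was 0.05. The summed RPKM of the 4 PBAF genes had a median of 40.3 in Stem and 40.5 in TGF-β. All 3 members listed here under non-canonical BAF fell, against 37.7% of all genes. Bicra (ENSMUSG00000070808), also called GLTSCR1 and a defining subunit of this form, had 556, 448 and 579 in Stem, 310, 257 and 245 in TGF-β and 326, 316 and 346 in Both. The groups did not overlap between Stem and TGF-β, a fall of 0.97 (interval -1.21 to -0.72, adjusted p = 6.29e-06). Its paralog Bicral fell by 0.55 and the bromodomain subunit Brd9 by 0.42. The summed RPKM of the 3 genes had a median of 10.3 in Stem and 6.66 in TGF-β.

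**Figure D3:**
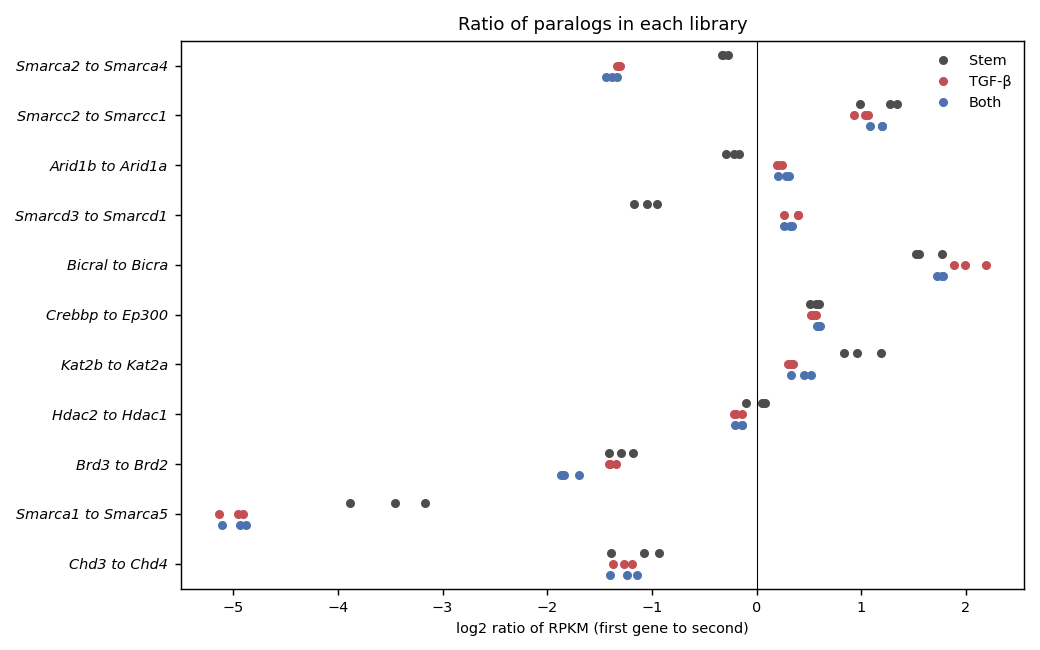
Log2 ratio of the RPKM of 11 pairs of paralogs in each library (horizontal axis), with Stem in grey, TGF-β in red and Both in blue. Smarcd3 to Smarcd1 changes sign between Stem and TGF-β, Smarca2 to Smarca4 is below 0 in every library and lowest in TGF-β and Both, and Brd3 to Brd2 is lower in Both than in the other groups.

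Ratios of the RPKM of paralogs within a library were compared for 11 pairs, as a description. In 7 pairs the Stem and TGF-β libraries did not overlap. The share without overlap among other pairs of genes was not computed. The log2 ratio of Smarca2 to Smarca4 fell from -0.31 ± 0.03 in Stem to -1.32 ± 0.02 in TGF-β (SD, n = 3). That of Smarcd3 to Smarcd1 went from -1.06 ± 0.11 to 0.35 ± 0.07 (SD, n = 3), and that of Arid1b to Arid1a from -0.22 ± 0.06 to 0.21 ± 0.02 (SD, n = 3). Kat2b to Kat2a fell by 0.67 and Hdac2 to Hdac1 by 0.19, and Smarca1 to Smarca5 went from -3.50 ± 0.36 to -5.00 ± 0.12 (SD, n = 3), while Bicral to Bicra was 0.41 higher in TGF-β and Smarcc2 to Smarcc1, Crebbp to Ep300 and Chd3 to Chd4 overlapped between the groups. The ratio of Brd3 to Brd2 also overlapped between Stem and TGF-β. For Smarcc2 to Smarcc1 and Chd3 to Chd4 the overlap came only from Stem replicate 2 (0.99 and -1.39). The other Stem values were 1.34 and 1.27 for Smarcc2 to Smarcc1, against at most 1.06 in TGF-β. For Chd3 to Chd4 they were -0.93 and -1.07, against at most -1.19 in TGF-β. The Smarcd3 ratio carries the uncertainty of overlapping exons given above.

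The other remodelers all fell with TGF-β1. Smarca1 (ENSMUSG00000031099), the ISWI motor SNF2L, had 286, 474 and 384 normalized counts in the Stem libraries, 112, 110 and 98.6 in TGF-β and 113, 117 and 99.2 in Both. The spread within Stem was wide, and every TGF-β value was still less than every Stem value, a fall of 1.83 (interval -2.20 to -1.47, adjusted p = 7.54e-07). The other ISWI motor, Smarca5 (SNF2H), fell by 0.31, and its log2 fold change was 0.06 with the correction for GC content and length. Chd4, the main motor of the NuRD complex, was the member with the highest RPKM in each group (mean RPKM 54.1 in Stem, 49.5 with TGF-β1 and 50.8 in Both). It fell by 0.13 (adjusted p = 0.0128), a call lost without TGF-β replicate 2. Chd3 (-0.29, adjusted p = 0.0483) and Ino80 (-0.11, adjusted p = 0.0488) were near the threshold with overlapping groups. Each of these calls was lost in 7 of the 9 fits that left out a single library. The call of Chd3 was kept without Stem replicate 2, where the log2 fold change was -0.43, and without Both replicate 2, and that of Ino80 was kept without Stem replicate 2 and without TGF-β replicate 3.

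**Figure D4:**
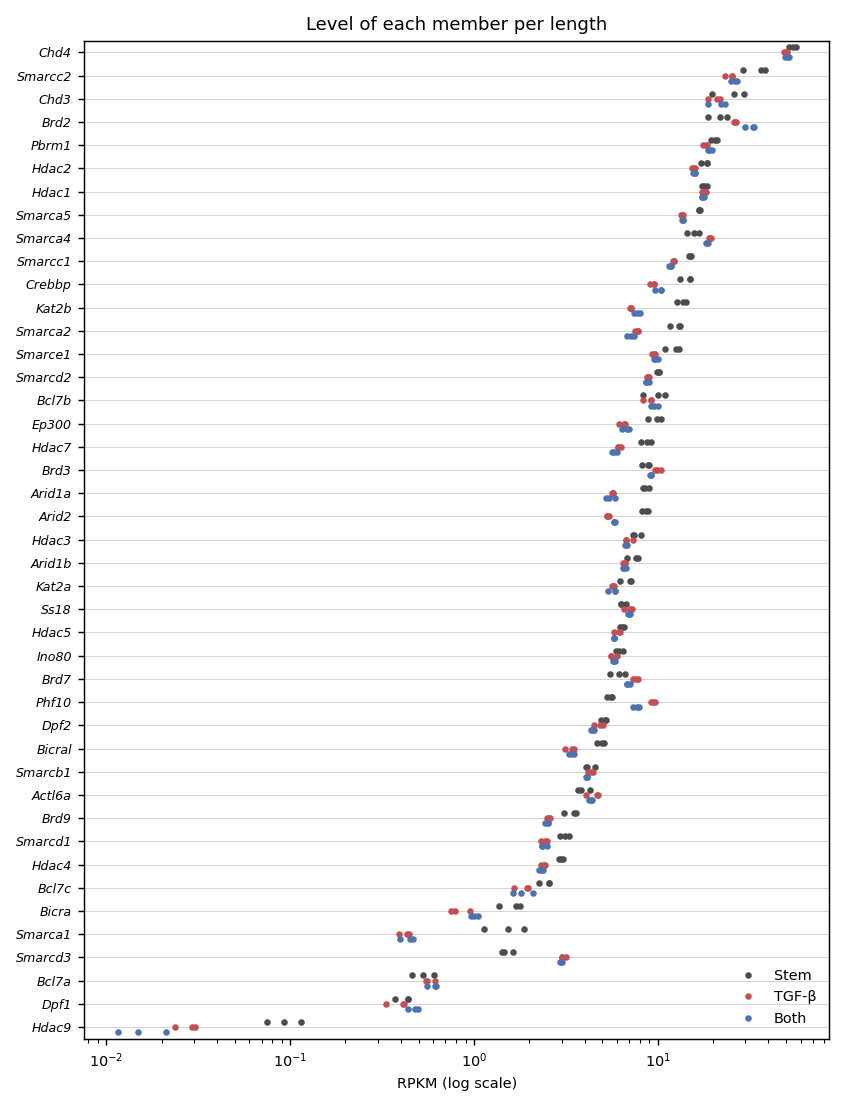
Level of 43 members in RPKM (horizontal log axis), ordered by their mean in Stem, with 3 points each for Stem (grey), TGF-β (red) and Both (blue). Chd4 is highest in every group and Hdac9 lowest, at under 0.12 in every library.

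All 4 acetyltransferases of this set fell, against 37.7% of all genes. Of 15 acetyltransferases outside the set, 1 rose and 7 fell. Kat2b (ENSMUSG00000000708), or PCAF, had 2560, 2847 and 2737 normalized counts in the Stem libraries, 1437, 1440 and 1420 in TGF-β and 1602, 1545 and 1480 in Both. All TGF-β values were below all Stem values, a fall of 0.92 (interval -1.03 to -0.82, adjusted p = 4.17e-09). The paralogous coactivators Crebbp (CBP) and Ep300 (p300) fell by 0.61 and 0.59, and Kat2a (GCN5) by 0.26. Their summed RPKM was 42.4 to 45.4 in Stem, 28.2 to 29.0 in TGF-β and 29.1 to 31.1 in Both. Both BET genes rose instead, Brd2 by a log2 fold change of 0.29 (adjusted p = 0.00289) and Brd3 by 0.21 (adjusted p = 0.000822), and these calls were lost under total-count scaling. Over the 11 genes that encode a bromodomain, 4 rose and 7 fell (36.4% and 63.6%, against 37.3% and 37.7% of all genes).

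Of the class I deacetylases, Hdac2 and Hdac3 fell and Hdac1 did not pass. Hdac2 (ENSMUSG00000019777) had 3400, 3157 and 3423 normalized counts in the Stem libraries, 2834, 2916 and 2952 in TGF-β and 2931, 2858 and 2932 in Both. The groups did not overlap between Stem and TGF-β, a fall of 0.20 (interval -0.29 to -0.11, adjusted p = 0.000763), and the log2 fold change was 0.07 with the correction for GC content and length. Hdac3 fell by 0.14 (adjusted p = 0.035), a call lost without any of 6 libraries (Stem 2, TGF-β 1 and 3, and all 3 of Both). Hdac1 had a log2 fold change of -0.01 (interval -0.09 to 0.08). The class IIa deacetylases shuttle between nucleus and cytoplasm and are known partners of the muscle factor Mef2. Hdac9 (ENSMUSG00000004698), the least abundant member tested, had raw counts of 43, 64 and 52 in Stem, 17, 14 and 18 in TGF-β and 10, 13 and 8 in Both. Each TGF-β value lay below each Stem value, and Hdac9 fell by 1.76 on the log2 scale (interval -2.30 to -1.22, adjusted p = 3.57e-05). Hdac7 fell by 0.50 and Hdac4 by 0.31, the latter with 22.4% of its exon length under an opposite-strand lincRNA, and Hdac5 did not pass (-0.08, adjusted p = 0.0956).

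Adding PFI-3 to TGF-β1 changed few of these genes. Between TGF-β and Both, 1 of the 43 tested members rose and 1 fell, compared with 3.54% and 5.38% of all genes, and 0 were past 2-fold, compared with 0.632%. The median log2 fold change over the members was 0.00031 and the median absolute change 0.058. Without Stem replicate 2, which enters the shared estimate of the spread, 3 rose and 3 fell. Calls over all genes also increased in that fit, to 2193 of 15155 from 1327 of 14879 in the main fit. Phf10 fell from 1851, 1895 and 1964 normalized counts in TGF-β to 1602, 1562 and 1490 in Both. Every Both value lay between the Stem and the TGF-β values, with a fall of 0.30 on the log2 scale (interval -0.39 to -0.20, adjusted p = 0.00181), and its call was kept without each library in turn. The opposite-strand gene 1600012H06Rik covers 9.57% of the exon length of Phf10 and was 0.16 higher on the log2 scale in Both (adjusted p = 0.0531). Brd2 (ENSMUSG00000024335), a BET protein that binds acetylated histones, had 7646, 6043 and 6988 normalized counts in the Stem libraries, 8429, 8323 and 8568 in TGF-β and 10640, 9608 and 10725 in Both. All Both values were the highest, and Brd2 rose by a log2 fold change of 0.29 (interval 0.13 to 0.45, adjusted p = 0.0266). This call was lost without TGF-β replicate 1, 2 or 3 and without Both replicate 1 or 3, where the count of risen members was 0 and the adjusted p of Brd2 reached 0.104. The estimate stayed between 0.26 and 0.34 without each library in turn.

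The 3 genes whose bromodomains PFI-3 binds did not pass the test between TGF-β and Both. Smarca4 had a log2 fold change of -0.04 (interval -0.15 to 0.06, adjusted p = 0.654), Smarca2 of -0.11 (interval -0.22 to 0.01, adjusted p = 0.254) and Pbrm1 of 0.08 (interval -0.01 to 0.17, adjusted p = 0.248). The intervals for these 3 genes exclude a change of 2-fold in either direction. In each of them the Both libraries did not overlap with the TGF-β libraries, as the per-library values above show. The same held for other members that did not pass, among them Smarcb1, Smarcc1, Smarcd3, Dpf2, Crebbp and Kat2b. The share of all genes without overlap was not computed, so no conclusion is drawn from the separation. Hdac9 had a log2 fold change of -0.80 (interval -1.51 to -0.09, adjusted p = 0.156), with all Both counts below all TGF-β counts. Bicra, with 0.29 (adjusted p = 0.146), Arid2, with 0.12 (adjusted p = 0.0796), Brd7, with -0.15 (adjusted p = 0.15), and Brd3, with -0.13 (adjusted p = 0.086), had no overlap between the groups and did not pass. Among ratios of paralogs, Brd3 to Brd2 was -1.39 ± 0.04 in TGF-β and -1.80 ± 0.09 in Both, and Bicral to Bicra 2.02 ± 0.15 and 1.76 ± 0.03 (SD, n = 3), each without overlap. Smarca2 to Smarca4, Smarcc2 to Smarcc1 and Crebbp to Ep300 also did not overlap, by smaller differences (-0.07, 0.15 and 0.05). The summed RPKM of the BET genes was 27.0 to 32.6 in Stem, 35.5 to 37.1 in TGF-β and 39.0 to 42.4 in Both.

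Between Stem and Both, which shares libraries with both comparisons above, 6 of the 43 members rose and 26 fell, against 36.6% higher and 36.6% lower over all genes. Past 2-fold were 2, Smarca1 (-1.79) and Hdac9 (-2.56), against 22.8% of all genes. Without Stem replicate 2, 5 rose and 29 fell. Side by side for the genes described above, the log2 fold change from Stem was 0.29 in TGF-β and 0.25 in Both for Smarca4, -0.72 and -0.83 for Smarca2, 1.03 and 0.98 for Smarcd3, 0.77 and 0.48 for Phf10, and 0.29 and 0.58 for Brd2. The call of Smarca4 against Stem was lost in Both with total counts. The log2 fold change was -0.97 and -0.68 for Bicra, -0.92 and -0.82 for Kat2b and -0.60 and -0.65 for Arid1a.

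A wider list of chromatin genes, 97 further partners of these complexes, helicases, bromodomain proteins, acetyltransferases and deacetylases, was described in the same way. Its calls were not recomputed under the alternative fits used for the members, so those near the threshold are less certain. Of the 95 tested, 15 rose and 51 fell between Stem and TGF-β (15.8% and 53.7%, against 37.3% and 37.7% of all genes), with a median log2 fold change of -0.19. Of 18 other bromodomain proteins, 0 rose and 13 fell (72.2%). Of 15 other acetyltransferases, 1 rose and 7 fell (6.67% and 46.7%), with a median of -0.02. Past 2-fold were Chd5, a CHD remodeler known from neurons (2.83), Chd6 (-1.19), the bromodomain protein Phip (-1.09), Baz2b, an ISWI partner (-1.03), and Sin3a, a deacetylase scaffold (-1.01). Chd5 was at a low level, with 15.7, 15.2 and 17.3 normalized counts in the Stem libraries, 124, 103 and 117 in TGF-β and 67.5, 82.9 and 72.0 in Both. Between TGF-β and Both 7 of the 95 rose and 1 fell (7.37% and 1.05%, against 3.54% and 5.38% of all genes), with a median of 0.02. The fall was that of Chd5 (-0.63, adjusted p = 0.0112), and the largest rises were those of Chd7 (0.59, adjusted p = 0.0406), the Ss18 paralog Ss18l1 (0.35), Brpf3 (0.27), Chd9 (0.27) and Ino80d (0.19). Chd7 was also at a low level, with 35.6, 37.5 and 37.1 in TGF-β and 51.3, 52.3 and 62.3 in Both.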

How the data were processed

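RNA-Seq libraries were made from ribosome-depleted total RNA and sequenced as paired reads. The authors deposited raw counts per Ensembl gene, with a column for each library and no normalization, on GRCm39. Sources differ on the aligner: the paper's methods name STAR after trimming with Flexbar, and the submitters' processing notes list HISAT2 2.2.1, SAMtools 1.13 and HTSeq 0.11.3. The strand setting and how multiply aligned reads were handled are not given in the sources used here, so genes with annotated pseudogenes (Smarce1, Smarca5, Kat2b) or overlapping genes are less certain.

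Counts were tested in R 4.3.3 with edgeR 4.0.16 (filterByExpr, TMM, glmQLFit and glmQLFTest) in a single fit of the 9 libraries with only group as a term, 14879 genes tested, and Benjamini-Hochberg adjustment. The paper's threshold was the adjusted p below 0.05 with a log2 fold change past 1, and calls without the fold minimum are given beside it. Fitted log2 fold changes used a prior count of 0.125. Counts per kilobase used the joined length of all annotated exons of a gene in GENCODE models on GRCm38, for lengths only. Alternatives were DESeq2 1.42.0, other scalings and filters, only the 6 libraries compared, a replicate block and each library left out. A correction for GC content and length and a fit without Stem 2 and Both 2 were added after the data were seen. The pipeline was tested on simulated data.

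The members and lists were chosen with earlier results of these data known. Values in every library are given for the genes PFI-3 binds, members past 2-fold in any comparison, members called between TGF-β and Both, and the member with the largest change between Stem and TGF-β in each role. Of the wider list, up to 5 genes per direction were named.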

Additional observations from a re-analysis of the deposited data

How the results depend on the processing

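All 129 results (43 members in 3 comparisons) were recomputed under 20 alternatives each, and 2394 of the 2580 values kept their direction and their side of the threshold. Of the 1400 values of the 70 called results, 70 lost the call and 6 reversed. Of the 1180 values of the 59 results not called, 45 gained a call and 65 changed sign. The gains were 15 between TGF-β and Both, 22 between Stem and Both and 8 between Stem and TGF-β. Between Stem and TGF-β the count of members that rose was 4 with total counts (6 to 8 with each library left out), that of members that fell 25 to 28 with each library left out, and 3 to 4 were past 2-fold. Between TGF-β and Both the count of risen members was 2 with no filter, 2 with only the 6 libraries compared, 3 with the replicate block, 4 without Stem 2 and Both 2, and 0 to 3 with each library left out. The count that fell was 3 with only the 6 libraries, 3 with the replicate block and 1 to 3 with each library left out. Calls over all genes moved as well. From 1327 in the main fit they went to 2310 with only the 6 libraries and 2364 without Stem 2 and Both 2. With each library left out they were 639 to 2193. Between Stem and Both the count of risen members was 3 with total counts. The cause was not tested.

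The replicate numbers were not taken as pairs, since not every same-numbered pair of libraries had deviations from the group means that correlated above 0.1 across genes. The range was -0.05 to 0.20 (9 pairs), against -0.18 to 0.17 for other numbers (18 pairs), and 4 of the 9 libraries correlated best with their own number. The libraries numbered 2 did correlate over all genes (0.17, 0.20 and 0.14). Over the members alone Stem 2 and Both 2 did so at 0.80, the highest of all pairs. The other pairs numbered 2 were at 0.10 (Stem 2 and TGF-β 2) and -0.19 (TGF-β 2 and Both 2) over the members. Stem 1 and Both 3, of different numbers, reached 0.67. With the replicate block, 2309 genes in place of 1327 were called between TGF-β and Both, and among the members Brd2, Arid2 (adjusted p = 0.0397) and Crebbp (adjusted p = 0.0485) were called higher in Both than in TGF-β and Phf10, Brd7 (adjusted p = 0.0424) and Brd3 (adjusted p = 0.035) lower.

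The values that reversed among called results and the genes described in full were these. Ss18 was -0.0091 between Stem and TGF-β with total counts. With the correction for GC content and length, Pbrm1 was 0.051, Smarca5 0.057 and Hdac2 0.065 between Stem and TGF-β, Pbrm1 0.13 (adjusted p = 0.00807, a call in the other direction), Smarca5 0.029 and Hdac2 0.034 between Stem and Both, and Hdac2 -0.031 between TGF-β and Both. Between TGF-β and Both, where neither was called, Smarca1 ranged from -0.014 to 0.11 and Hdac2 from -0.014 to 0.015 with each library left out in turn, and Smarca1 was -0.0023 without Stem 2 and Both 2 together. Depth limits Dpf3, which had at most 2 counts, and Hdac9, which had 8 to 64 raw counts.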
